A study of Rattus norvegicus with 6 samples.

Results

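Carbonyl, quinone and electrophile detoxifying enzymes were represented by 6 genes, Akr1b10, Nqo1, Gsta1, Gsta4, Gstp1 and Me1, of 23940 genes in the deposited count table. They were found by name, through the study's supplementary list that pairs Ensembl identifiers with gene names, and all 6 names were paired. The copy of that list used here was shortened, and gave names for 1503 of the 1517 genes that could be read from it. Genes that could not be named below may be named in the full list. The list is ordered by the difference between the culture conditions, so the members are genes that were already known to differ between them. Their difference between conditions is given as a description without a test. All 6 passed the filter on low counts, which left 16331 genes.

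RNA-seq was performed on cortical astrocytes from Sprague-Dawley rat pups of postnatal day 0 to 1, used at passage 4. In the tissue-engineered rostral migratory stream (TE-RMS), a living scaffold built after the glial tube that guides migrating neuroblasts, astrocytes were pipetted into hydrogel microchannels prepared with collagen, where they bundled into aligned cables, and only well-bundled TE-RMSs were taken and pooled into 1 sample. In the planar condition, astrocytes were plated flat on collagen in 4 wells. Both were collected at 4 days in vitro, the TE-RMSs stored frozen and the planar cultures taken fresh. The TE-RMSs of a run were made on 3 sequential days from sister flasks, and planar cells were plated on the last of these days. Storage, day of fabrication and culture form therefore cannot be told apart. The whole process was repeated in 3 runs with different animals, each giving 1 TE-RMS and 1 planar library, and the runs, labelled by date, are named here July, September and October. No allele, gene edit or drug was part of either condition.

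The 6 libraries held 70682593, 70478784 and 56483332 counts for planar July, September and October, and 54601354, 77277336 and 64537115 counts for TE-RMS July, September and October. Levels are given below as CPM, the counts of a gene scaled to the total of its library after TMM scaling, and are compared between libraries and not between genes, since they are not divided by gene length. Each library came from a mixture of many cells, so a change in RNA per cell and a change in the share of a cell type cannot be told apart.

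Reactive aldehydes, quinones and other electrophiles arise from lipid peroxidation and from foreign compounds, and they modify proteins and DNA unless they are reduced or conjugated. Aldo-keto reductases and quinone reductases carry out the reduction with NADPH or NADH, glutathione transferases attach glutathione, and malic enzyme is among the sources of NADPH. Many of the genes are textbook targets of NRF2, a transcription factor that is held by KEAP1 and degraded until an electrophile modifies KEAP1, and that then binds antioxidant response elements next to its targets. Astrocytes are known for a strong response of this kind, by which they supply neighbouring neurons with glutathione precursors.

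Promoter sequences are shown because antioxidant response elements are the known binding sites of NRF2. Promoters of 250 bases before to 50 bases after the start site, from RefSeq on GRCr8, were searched on both strands for the core of the antioxidant response element, TGACNNNGC, where N is any base. The core was found in 12.1% of 33469 promoters, in 3 of the 6 members (Gstp1, Me1 and Gsta1) and in 7 of 26 other genes of the pathway that had a promoter in the table. It can overlap the AP-1 site TGACTCA, which was present in 4.63% of promoters and lay inside the match in Gstp1 and Me1 and, of the other genes shown, in Ephx1. The match of Gsta1 lay at bases 31 to 39 after the start, and the matches of Gstp1 and Me1 lay 61 to 53 and 167 to 159 bases before it. The sequences below run 5′ to 3′ along the gene, with the matching bases in capitals, from the minus strand at chr1:210769737-210769787 for Gstp1, chr8:96540382-96540432 for Me1 and chr13:95263145-95263195 for Ephx1, and from the plus strand at chr2:213031942-213031992 for Gclm. Ephx1, which encodes an epoxide hydrolase, and Gclm, which encodes the modifier subunit of the enzyme that limits glutathione synthesis, are shown beside the members as other genes of the pathway with the match on the opposite strand. Akr1c15 and Txnrd1 also had a match on that strand, and their sequences are not shown.
Gstp1: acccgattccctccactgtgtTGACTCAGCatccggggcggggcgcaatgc
Me1: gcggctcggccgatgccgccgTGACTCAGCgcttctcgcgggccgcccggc
Ephx1: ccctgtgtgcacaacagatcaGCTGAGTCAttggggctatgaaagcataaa
Gclm: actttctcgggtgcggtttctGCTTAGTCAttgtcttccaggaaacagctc
A match describes these letters, and whether any of them is bound in these cultures was not tested. Bases further from the start were not searched, so a gene without a match here may hold an element elsewhere.

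All 6 enzymes were higher in TE-RMS than in planar astrocytes within every run, as were 22.5% of all tested genes, and 4 of them, Akr1b10, Nqo1, Gsta1 and Gstp1, also differed between runs at equal condition, beside 3.21% of all genes and 11.8% of the genes read from the study's list. For 5 of the 6, and for 14.8% of all genes, the September run was the highest in planar and in TE-RMS cultures alike. Over the 3 runs the level moved further than the ratio of TE-RMS to planar did for 5 of the 6 and for 31.5% of all genes. Each gene is described by its role below, first with its level in every library, then with the ratio in each run, and then with the test between runs. The ratio of each run compares 1 library with 1 library, so a change of the ratio between runs could not be tested, and the 95% intervals beside the folds, from the exact (Clopper-Pearson) binomial method, cover counting error only.

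**Figure D1:**
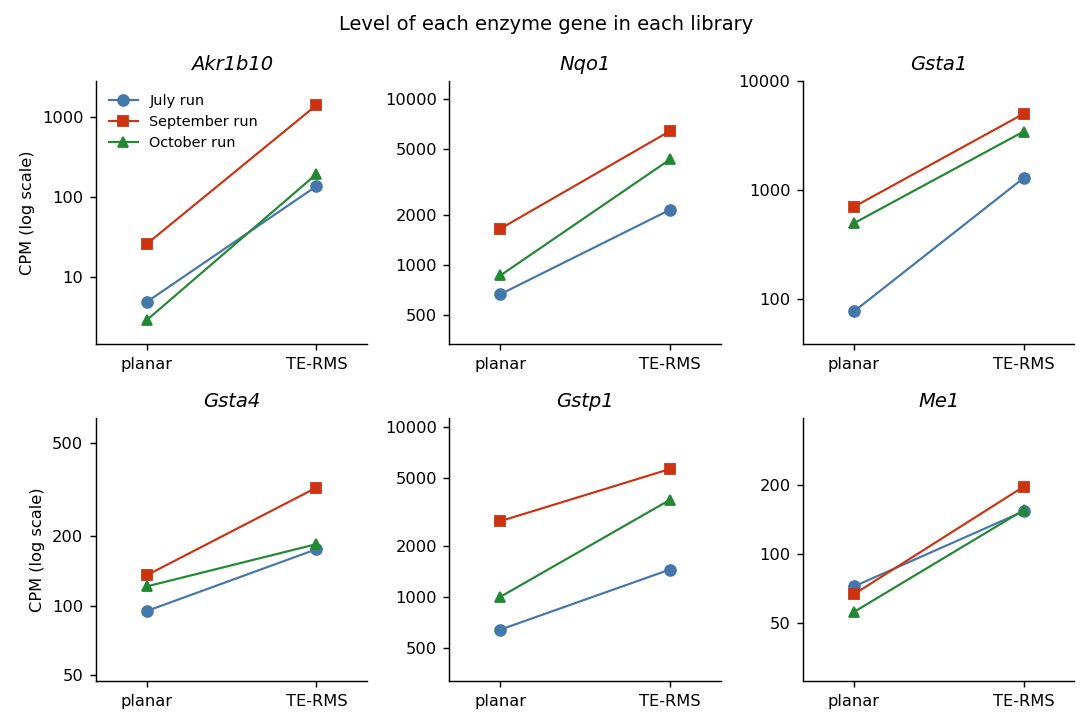
Level of each enzyme gene in CPM after TMM scaling (log axis, a range of its own for each gene) in planar and TE-RMS cultures, with a line joining the 2 libraries of each run. Every line rises from planar to TE-RMS, and the September line is the highest at both ends for all genes but Me1, where planar September, at 66.7 CPM, lies below planar July, at 72.1 CPM.

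Among the reducing enzymes, Akr1b10 belongs to the aldo-keto reductases, which reduce aldehydes and ketones to alcohols with NADPH. Its identifier is ENSRNOG00000027433, at chr4:62997161-63010097 of mRatBN7.2, the build of all gene coordinates given here outside the promoters. Names were crossed here, since the study's list names this identifier Akr1b10 but labels it Akr1b8 for figures, and does the reverse for ENSRNOG00000009734, which follows it along chromosome 4. RefSeq places Akr1b8 first and Akr1b10 second, an order that goes with the figure label and against the name used here. The values below therefore belong to the identifier, and whether they measure Akr1b10 or Akr1b8 is uncertain. Reads of such similar paralogs are shared out by estimation. No match to the searched core was found in the RefSeq promoter of either name, within the bases searched.

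Akr1b10 was measured at 4.91, 25.9 and 2.91 CPM in planar July, September and October, and at 136 (July), 1393 (September) and 192 CPM (October) in TE-RMS. The lowest TE-RMS library was above the highest planar library, and both September libraries stood far above the other two of their condition. The mean was 11.2 ± 12.8 CPM for planar and 574 ± 710 CPM for TE-RMS cultures (SD, n = 3 each), so the SD was as large as the mean. Within runs the fold was 27.7 (95% interval 24.9 to 31.1) in July, 53.7 (51.3 to 56.3) in September and 66.1 (57.0 to 77.2) in October, and the log2 fold change over the 3 runs was 5.53 ± 0.26 (SE). The highest run exceeded the lowest 8.90-fold in planar and 10.2-fold in TE-RMS. September was above July by 2.86 ± 0.29 on the log2 scale (edgeR quasi-likelihood test, adjusted p = 0.000378) and October minus September was -2.97 ± 0.29 (edgeR adjusted p = 0.00104), while October and July differed by -0.11 ± 0.28 (edgeR adjusted p = 0.913). Akr1b10 thus changed in the September run relative to both other runs, and it ranked at place 11 of all tested genes by the joint run test.

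Nqo1 encodes the quinone reductase that takes quinones to hydroquinones without a semiquinone step (ENSRNOG00000012772, chr19:35295573-35310557). Its level was 666, 1653 and 864 CPM in planar July, September and October, and 2149 (July), 6407 (September) and 4320 CPM (October) in TE-RMS. All TE-RMS libraries were above all planar libraries, although TE-RMS July lay close to planar September, and the runs kept the order July, October, September in both conditions. Means were 1061 ± 522 CPM for planar and 4292 ± 2129 CPM for TE-RMS cultures (SD, n = 3 each). The fold within the run was 3.23, 3.88 and 4.999 in July, September and October, and the log2 fold change was 1.99 ± 0.19 (SE). September was above July by 1.44 ± 0.23 (edgeR adjusted p = 0.00666), and October lay between them without a called difference from July (0.69 ± 0.23, edgeR adjusted p = 0.179) or from September (-0.74 ± 0.23, edgeR adjusted p = 0.165).

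Among the glutathione transferases, Gsta1 encodes an alpha class transferase that conjugates electrophiles and also reduces organic hydroperoxides (ENSRNOG00000013484, chr9:23703477-23720121). It was measured at 76.7, 701 and 496 CPM in planar July, September and October, and at 1287 (July), 5006 (September) and 3438 CPM (October) in TE-RMS. July was low in both conditions and the groups did not overlap. The mean was 424 ± 318 CPM for planar and 3244 ± 1867 CPM for TE-RMS cultures (SD, n = 3 each). The fold was 16.8 (16.3 to 17.3) in July, 7.14 (7.08 to 7.21) in September and 6.94 (6.85 to 7.02) in October, so that the run with the lowest levels had the highest fold, and the log2 fold change over runs was 3.23 ± 0.26 (SE). Unlike Akr1b10, Gsta1 separated July from both later runs. September was above July by 2.53 ± 0.31 (edgeR adjusted p = 0.00125) and October by 2.01 ± 0.30 (edgeR adjusted p = 0.00461), while October and September differed by -0.52 ± 0.29 (edgeR adjusted p = 0.505).

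Gsta4 encodes the alpha class enzyme best known for conjugating 4-hydroxynonenal, a product of lipid peroxidation (ENSRNOG00000030449, chr8:79066934-79084182). Its level was 94.7, 135 and 121 CPM in planar July, September and October, and 175 (July), 322 (September) and 184 CPM (October) in TE-RMS. All TE-RMS libraries were above all planar ones, and TE-RMS September stood apart from the other TE-RMS libraries. The fold was 1.85, 2.38 and 1.52 in July, September and October, with a log2 fold change of 0.91 ± 0.17 (SE), the lowest of the 6. The runs kept the order July, October, September in both conditions, but their difference did not pass the test, with September against July at 0.71 ± 0.21 (edgeR adjusted p = 0.14) and a joint adjusted p of 0.183 by edgeR.

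Gstp1 encodes the pi class transferase (ENSRNOG00000018237, chr1:201321672-201340226). It was measured at 644, 2792 and 1004 CPM in planar July, September and October, and at 1452 (July), 5648 (September) and 3725 CPM (October) in TE-RMS. This was the member whose conditions overlapped, since planar September was above TE-RMS July. The mean was 1480 ± 1151 CPM for planar and 3608 ± 2100 CPM for TE-RMS cultures (SD, n = 3 each), and the fold within the run was 2.25 in July, 2.02 in September and 3.71 in October, with a log2 fold change of 1.36 ± 0.20 (SE). September was above July by 2.04 ± 0.26 (edgeR adjusted p = 0.00135). October minus July was 1.02 ± 0.25 and October minus September -1.02 ± 0.25, which edgeR did not call (adjusted p = 0.061 and 0.075), whereas limma-voom did (adjusted p = 0.031 and 0.0376).

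Me1 encodes the cytosolic malic enzyme, which makes NADPH from malate and so supplies the reducing enzymes above rather than acting on electrophiles (ENSRNOG00000009715, chr8:87549043-87660304). It was measured at 72.1, 66.7 and 55.8 CPM in planar July, September and October, and at 153 (July), 197 (September) and 155 CPM (October) in TE-RMS. The libraries of a condition lay close together, the groups were far from overlapping, and planar September was not the highest. The mean was 64.9 ± 8.31 CPM for planar and 168 ± 24.4 CPM for TE-RMS cultures (SD, n = 3 each), the fold was 2.13, 2.95 and 2.78 in July, September and October, and the log2 fold change was 1.37 ± 0.17 (SE). September and July differed by 0.12 ± 0.20 (edgeR adjusted p = 0.905), October and July by -0.18 ± 0.20 (edgeR adjusted p = 0.773), and the joint adjusted p was 0.719 by edgeR.

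Set beside all genes, the condition difference of the members only restates how they were found. The condition contrast called 9.36% of all tested genes higher and 9.28% lower in TE-RMS, and the 6 members were among the genes it placed higher. In 13.2% of all genes, and in 5 of the 6 members, every TE-RMS library was above every planar library. TE-RMS was above planar in each of the 3 runs in 22.5% of all genes and in 6 of the 6 members.

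The members were found by name and by no threshold on the difference between runs, but earlier results of these data were known when they were chosen, so the run test may not be independent of that choice. The joint edgeR test of the run terms called 3.21% of all genes (525 of 16331) and 4 of the 6 members, with adjusted p of 0.0001 for Akr1b10, 0.00231 for Gsta1, 0.00246 for Gstp1 and 0.0106 for Nqo1. Both tests use the same estimate of residual spread, so a gene selected for a clear condition difference has a better chance of passing the run test, and among the 1517 genes read from the study's list 11.8% passed. Among the 1600 genes with a mean level at least that of the least abundant member, 6.94% passed. The test of September against July called 1.01% of all genes higher in September, including 4 of the 6 members, and 0.802% lower, with no member. October against July called 1.23% of genes higher in October, with Gsta1 as the member called, and 0.833% lower, with no member. October against September called 0.68% of genes higher, with no member, and 0.588% lower in October, with Akr1b10 as the member called. When both September libraries were left out, the run test, which then compares July with October alone, called 546 of 15625 genes and 2 of the 6 members, Gsta1 (edgeR adjusted p = 4.01e-08) and Gstp1 (edgeR adjusted p = 0.0467, against 0.061 for October minus July with all libraries), while Akr1b10 and Nqo1 did not pass (edgeR adjusted p = 0.972 and 0.335). It called 746 of 15795 genes without the July libraries and 366 of 15641 without the October libraries, and 4 of the 6 members each time. Such fits hold fewer libraries and leave less residual spread to estimate per gene. A smaller adjusted p there is therefore no stronger evidence. For Gsta1, October minus July was 2.05 without September and 2.01 with all libraries, at edgeR adjusted p of 4.01e-08 and 0.00461. Cultures of a run shared animals, dates and handling, so that these cannot be told apart as the source of a difference between runs.

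September was the highest run in both conditions in 14.8% of all genes, in 18.9% of the genes read from the study's list and in 30.8% of the genes at least as abundant as the members, against 5 of the 6 members. The same run, whichever it was, was highest in both conditions in 44.5% of all genes. The order of all 3 runs was the same in planar and TE-RMS cultures in 25.0% of all genes and in 4 of the 6 members, Nqo1, Gsta1, Gsta4 and Gstp1, each with July lowest and September highest. These are descriptions of 3 runs, with no test.

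The level of a run (mean log2 CPM of its 2 libraries) was then compared with the ratio of a run (TE-RMS minus planar log2 CPM), each as the highest minus the lowest of the 3 runs. The level spread and the ratio spread were 3.00 and 1.25 for Akr1b10, 1.44 and 0.63 for Nqo1, and 2.58 and 1.27 for Gsta1. They were 2.04 and 0.88 for Gstp1, 0.70 and 0.65 for Gsta4, and 0.30 and 0.47 for Me1. For Gsta4 the spreads were nearly equal, and for Me1 the ratio moved further. For the 4 members that passed the run test a wider spread of the level is no separate result, since the change of the ratio between runs is the residual of that test. The median was 1.74 for the level and 0.76 for the ratio over the members, against 0.74 and 1.02 over all genes. A difference of 2 independent libraries varies more than their mean by construction, and the level spread was the larger in 31.5% of all genes, in 45.2% of the genes read from the study's list and in 43.1% of the genes at least as abundant as the members, against 5 of the 6 members. The order of the ratios was not shared, since the ratio was highest in October for Akr1b10, Nqo1 and Gstp1, in July for Gsta1, and in September for Gsta4 and Me1.

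**Figure D2:**
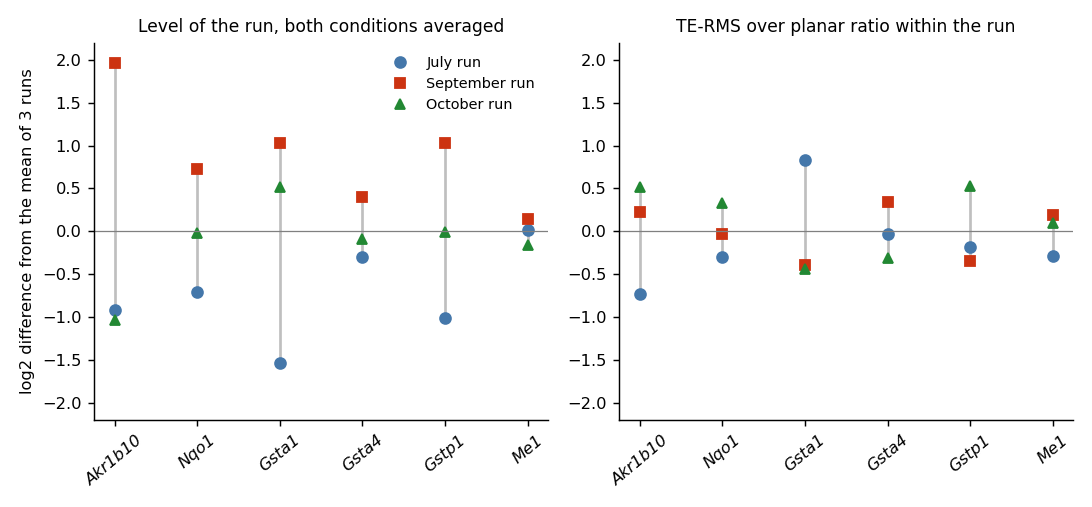
For each enzyme gene, the level of each run (left, both conditions averaged) and the TE-RMS over planar ratio of each run (right), as log2 differences from the mean of the 3 runs; grey bars join the highest and lowest run. September is on top at left for all 6 genes, and bars are longer at left than at right for all but Me1.

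**Figure D3:**
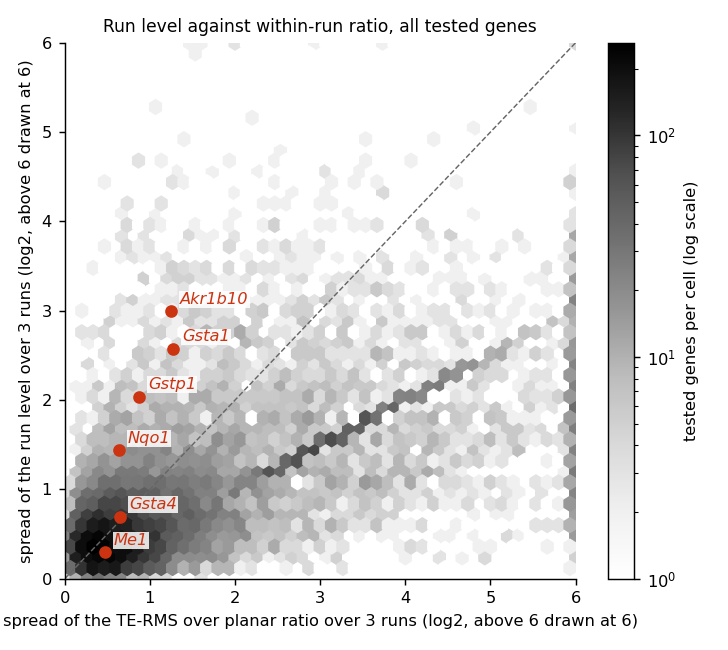
Spread of the run level against spread of the within-run ratio (both log2, values above 6 drawn at 6) for 16331 tested genes, with shading for the number of genes per cell and the 6 enzyme genes in red. Akr1b10, Gsta1, Gstp1 and Nqo1 lie well above the dashed line of equal spreads, Gsta4 lies on it and Me1 below it.

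Some markers of other cells, Cd68, Evi2a and Snap25, were also highest in September in both conditions and passed the run test, and the markers that could be named are given here beside that result. The astrocyte label was checked with 3 of 11 markers that could be named, the glutamate transporters Slc1a3 and Slc1a2 and the gap junction gene Gja1, whose summed level was 516, 537 and 499 CPM in planar July, September and October and 1273 (July), 1501 (September) and 1765 CPM (October) in TE-RMS. Slc1a3 and Gja1 were abundant in all libraries, Slc1a2 was low in planar cultures (0.41 to 1.33 CPM), and none of the 3 passed the run test. Gfap and Aqp4 were not analysed here.

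Of 19 microglia and macrophage markers 4 could be named, and their summed level was 26.0, 40.01 and 27.5 CPM in planar July, September and October and 16.6 (July), 141 (September) and 29.5 CPM (October) in TE-RMS. The lysosomal glycoprotein gene Cd68, which gave most of that sum in TE-RMS September, was at 1.301, 15.6 and 0.78 CPM in planar and 8.69 (July), 85.4 (September) and 3.75 CPM (October) in TE-RMS, and differed between runs (edgeR adjusted p = 3.5e-05). Evi2a differed between runs too (edgeR adjusted p = 0.000166), with 1, 72 and 17 counts in planar July, September and October. Lrrc25 was highest in September in both conditions without passing (edgeR adjusted p = 0.289), with 3, 13 and 1 counts in the same planar libraries. The planar order of both thus rests on few reads. Tmem119, a microglia marker that gave most of the sum in every planar library, was not highest in September in either condition (23.2 to 26.5 CPM in planar, 5.26 to 9.14 CPM in TE-RMS). Thus 3 of the 4 were highest in September in both conditions, beside 14.8% of all genes and 18.9% of the genes read from the study's list. The paper had already named Evi2a as varying between runs, and Lrrc25 among the genes most raised in TE-RMS. Both were listed with that known, so for them this is a description.

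Of 7 neuron markers 2 could be named. The synaptic gene Snap25 had 1, 284 and 3 counts in planar July, September and October and 26 (July), 4374 (September) and 222 counts (October) in TE-RMS (edgeR adjusted p of the run test 4.4e-05), whereas Map2 was not highest in September in either condition (edgeR adjusted p = 0.239). Of 7 fibroblast and mural markers 3 could be named, the collagens Col1a1, Col1a2 and Col3a1, and their summed level was 646, 395 and 634 CPM in planar July, September and October and 180 (July), 144 (September) and 229 CPM (October) in TE-RMS. The sum was lowest in September in both conditions, but Col3a1 alone was lowest in October in both. Col1a1 and Col3a1 passed the run test (edgeR adjusted p = 0.0235 and 0.000514) and Col1a2 did not (edgeR adjusted p = 0.134). Of 9 oligodendrocyte lineage markers the proteoglycan gene Cspg4 is given, at 4.02, 4.91 and 5.09 CPM in planar July, September and October and 0.71 (July), 0.86 (September) and 0.095 CPM (October) in TE-RMS, without passing the run test (edgeR adjusted p = 0.79), and of 5 endothelial markers none could be named. None of the named markers was at 0 in all libraries. Between conditions, the named astrocyte and neuron markers were higher in TE-RMS, such as Slc1a3 by 1.56 and Snap25 by 4.615 on the log2 scale. Cd68 (2.49), Evi2a (5.37) and Lrrc25 (6.13) were higher too. Tmem119 (-1.94), Cspg4 (-3.41) and the collagens, such as Col1a1 (-1.69), were lower. All were named through the list ordered by that difference. The part of these cells in the level of the 6 enzymes, in September or between conditions, was not tested.

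The other genes of the pathway that could be named numbered 28, taken from lists of families and roles. They come from the part of the study's list, ordered by the condition difference, that could be read. Of its 1517 genes, 1513 passed the test used here (751 higher and 762 lower in TE-RMS), so that passing says nothing about them. Of the 28, 25 were higher in TE-RMS and 3 lower (edgeR, adjusted p under 0.05), with a median log2 fold change of 1.26 against -0.12 over all genes. The run test called 7 of the 28, beside 3.21% of all genes and 11.8% of the genes read from that list. In both conditions 12 of the 28 were highest in September, beside 14.8% and 18.9%. Among genes at least as abundant as the least abundant member, as some of the 28 are, that share was 30.8%. Their median level spread was 0.86 and their median ratio spread 0.78.

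In the families of the members, the aldo-keto reductases Akr1b1, the polyol pathway aldose reductase, Akr1b8 and Akr1c15 were higher in TE-RMS by 2.05 ± 0.24, 4.74 ± 0.62 and 5.79 ± 1.13 on the log2 scale (SE). Akr1b8 had 8, 26 and 11 counts in planar July, September and October and 157 (July), 1512 (September) and 148 counts (October) in TE-RMS, with September highest in both conditions as for its neighbour Akr1b10, and its run test did not pass (edgeR adjusted p = 0.0876). Akr1b1 was highest in July in planar cultures and in September in TE-RMS. Among the glutathione transferases, Gstm1 and Gstm7, of the mu class, were higher by 1.89 ± 0.21 and 1.51 ± 0.25, Gstt3 by 2.39 ± 0.27 and the membrane-bound Mgst1 by 1.16 ± 0.17. Mgst1, like Gsta1, was lowest in July in both conditions (46.8, 109 and 131 CPM in planar and 83.1, 259 and 341 CPM in TE-RMS, July, September and October) and differed between runs (edgeR adjusted p = 0.00212), while Gstt3 differed between runs with October low (edgeR adjusted p = 0.0303).

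Of the enzymes that oxidize or reduce carbonyls, 4 of 5 were higher in TE-RMS. Aldh1a1, which oxidizes retinal and other aldehydes, ran against the members. It was at 188, 24.1 and 55.1 CPM in planar July, September and October and at 873 (July), 118 (September) and 168 CPM (October) in TE-RMS, highest in July in both conditions. September minus July was -2.92 on the log2 scale (edgeR adjusted p = 7.2e-05), while Aldh1a1 was higher in TE-RMS within every run, with a level spread of 2.92 and a ratio spread of 0.69. Cbr1l2, Aldh6a1 and Ptgr2 were higher in TE-RMS by 0.77 to 1.07 on the log2 scale and the mitochondrial Aldh2 was lower (-1.303 ± 0.21, SE), and none of these 4 passed the run test. Ephx1 and Ugt1a8, a glucuronosyltransferase, were higher by 1.28 ± 0.17 and 2.57 ± 0.19, and Ephx1 differed between runs with July lowest (edgeR adjusted p = 0.0247). The study's list labels Ugt1a8 as Ugt1a1 and Cbr1l2 as Cbr1 for figures, so their values belong to the identifiers listed under these names.

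Among the named genes that supply NADPH and glutathione, none passed the run test. Me2, a mitochondrial malic enzyme, and Taldo1, of the pentose phosphate pathway, were higher in TE-RMS by 1.199 ± 0.17 and 1.84 ± 0.30. The cystine carrier gene Slc7a11 was at 0.64, 0.40 and 1.44 CPM in planar July, September and October and 8.94 (July), 112 (September) and 49.2 CPM (October) in TE-RMS. Slc7a11 was thus low in all planar libraries, lowest in September, and highest in September in TE-RMS, with a ratio spread of 4.27 above its level spread of 1.80, the opposite order to Akr1b10 and Gsta1. Gclm was higher by 1.60 ± 0.20 with a September ratio of 2.04 and a July ratio of 1.04 on the log2 scale.

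Nfe2l2, the gene of NRF2 itself, was at 595, 1027 and 520 CPM in planar July, September and October and 1000 (July), 1535 (September) and 972 CPM (October) in TE-RMS, with a log2 fold change of 0.74 ± 0.17 (SE). It was highest in September in both conditions, but its run test did not pass (edgeR adjusted p = 0.0696). Among its regulators and relatives, Sqstm1, whose product p62 sequesters KEAP1, was higher by 0.82 ± 0.17, and Nfe2l1 lower (-1.24 ± 0.20). Of the other NRF2 targets, the heme oxygenase gene Hmox1 was higher by 2.89 ± 0.20, the thioredoxin reductase gene Txnrd1 by 1.04 ± 0.16, Osgin1 by 2.29 ± 0.32 and the ferritin light chain gene Ftl1 by 1.24 ± 0.17. All 4 were highest in September in both conditions, beside 14.8% of all genes and 30.8% of the genes at least as abundant as the least abundant member. None of the 4 passed the run test (edgeR adjusted p from 0.0997 to 0.563). Txnip, whose product inhibits thioredoxin and which was listed with them for contrast, was lower in TE-RMS in every run (-1.08 ± 0.21) and yet also highest in September (edgeR adjusted p of the run test 0.0066).

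Nqo1 and some transferases also belong to the genes induced by the aryl hydrocarbon receptor, a sensor of planar aromatic compounds, of whose genes 2 of 7 could be named. Cyp1a1, the standard readout of this receptor, was at 11.3, 63.2 and 42.4 CPM in planar July, September and October and 28.5 (July), 95.7 (September) and 118 CPM (October) in TE-RMS. Tiparp was at 97.2, 163 and 104 CPM in planar and 189 (July), 396 (September) and 215 CPM (October) in TE-RMS. July was lowest for both genes in both conditions, and both passed the run test (edgeR adjusted p = 0.00127 for Cyp1a1 and 0.0377 for Tiparp).

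**Figure D4:**
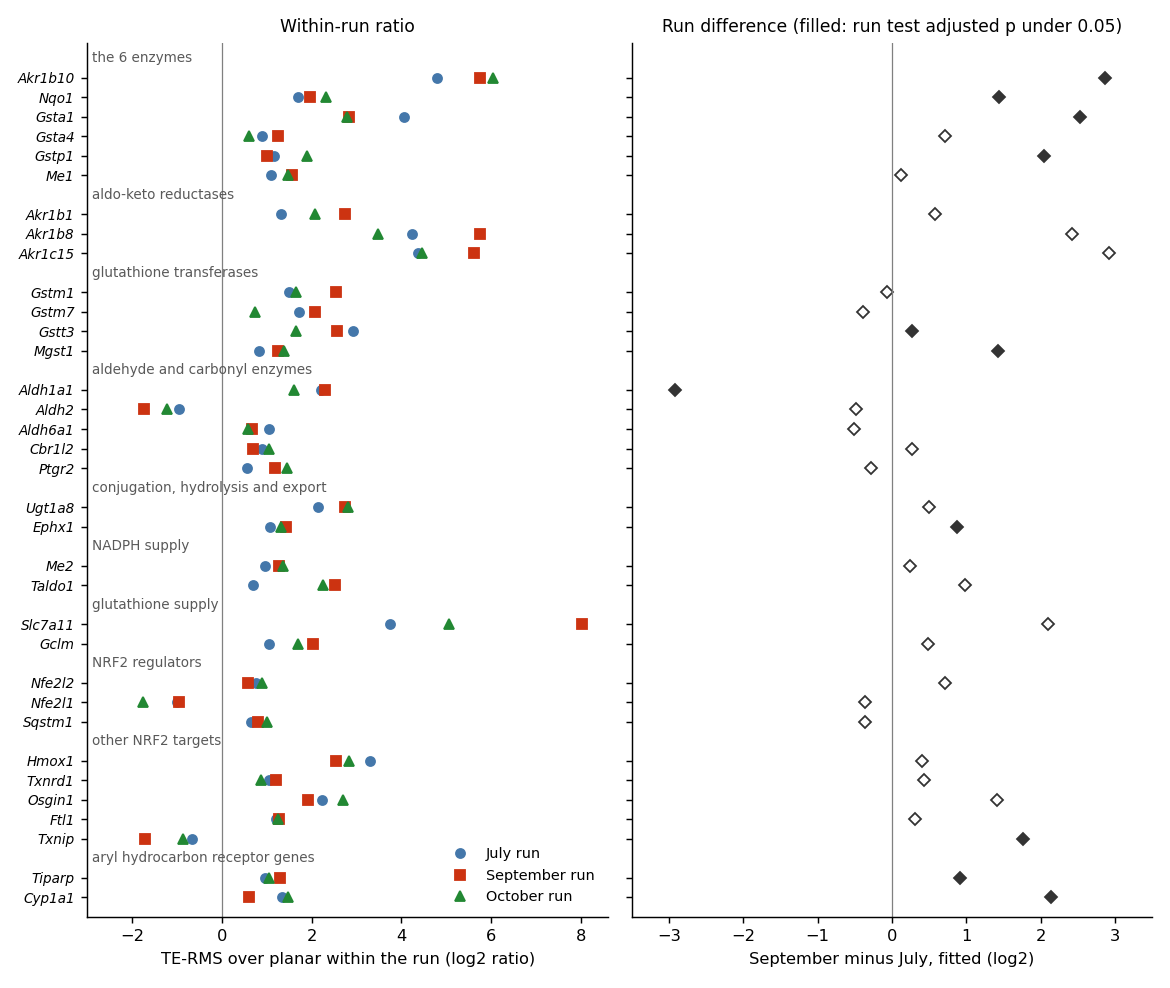
The 6 enzyme genes and 28 other genes of the pathway, grouped by role, with the log2 TE-RMS over planar ratio in each run (left) and the fitted September minus July difference in log2 (right, filled where the joint run test gave an adjusted p under 0.05 by edgeR). Ratios lie right of 0 for all but Aldh2, Nfe2l1 and Txnip, while run differences lie on both sides of 0, from -2.92 for Aldh1a1 to 2.92 for Akr1c15.

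Across the 6 libraries the members resembled each other, with Pearson correlations of log2 CPM between 0.667 (Gstp1 and Me1) and 0.965 (Akr1b10 and Nqo1). These are descriptions over libraries that share runs, of genes found for a common difference between conditions. Among 1502 other named genes, those with the profile most like Akr1b10 were Fam76b (r = 0.9986), Orc3 and Zranb2, and those most like Nqo1 were Slc35a1 (r = 0.9955), Pdha1 and Rnf128. Gsta1 was most like Clk1 (r = 0.9964), Pir and Pdcd4, and Gsta4 was most like Atf1 (r = 0.9968), AABR07019403.1 and Cd2ap. Gstp1 was most like St3gal6 (r = 0.9835), Snap25 and Spata1, and Me1 was most like Gnai3 (r = 0.999), Pnn and Vps35. No gene stood in the list of more than 1 member.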

How the data were processed

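Cortical astrocytes of 3 TE-RMS and 3 planar libraries were measured by RNA-seq. The authors trimmed reads with fastp and quantified them with Salmon against the Ensembl transcriptome on mRatBN7.2, and deposited estimated counts per gene, as whole numbers and not normalized. Shared reads of paralogs are divided by estimation, and the library kit did not mark strand. Intervals on counts cover counting error only. A minimum of 10 counts over the 6 libraries kept 16331 of 23940 genes. After TMM scaling, the quasi-likelihood test of edgeR 4.0.16 (R 4.3.3) was run with condition and run in 1 model and Benjamini-Hochberg adjustment over all genes at 0.05. Fold changes used a prior count of 0.125 and log2 CPM a prior count of 2. SE is the log2 difference divided by the root of F. The authors paired libraries by run. Deviations of libraries of 1 run correlated at 0.272, 0.240 and 0.182 (July, September, October), and those of different runs at -0.155 to -0.0657. Every column belonged to a labelled sample.

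The members, lists and rules for named genes (the 6 members, the paired genes of lists of pathway and cell markers, and the 3 genes most correlated with each member) were chosen with earlier results of these data known. Some listed genes are not reported here and were left out of the counts of their lists. The backgrounds of listed genes and of genes as abundant as the members were added after seeing the data. The authors' fold changes and p-values in their list were not used. Alternatives were DESeq2 1.42.0, limma 3.58.1 (voom), DESeq2 size factors, upper-quartile scaling, other filters, no block, no condition term, another prior count, and each run left out. The test was checked on simulated data.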

Additional observations from a re-analysis of the deposited data

How the results depend on the processing

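Over all alternatives 299 values kept their call or range, 12 lost and 13 gained a call, 21 moved and none reversed. Fold changes between conditions of the members ranged from 5.32 to 5.89 (Akr1b10), 1.86 to 2.14 (Nqo1), 2.82 to 3.49 (Gsta1), 0.74 to 1.10 (Gsta4), 1.13 to 1.53 (Gstp1) and 1.28 to 1.52 (Me1) on the log2 scale. The run test called 224 genes with at least 10 counts in 3 libraries, 1245 by DESeq2 and 1 with no condition term, against 525. September against July gave 136, 777 and 0 calls, October against July 162, 869 and 0, and October against September 50, 668 and 0, against 296, 337 and 207. With no condition term, which leaves the condition difference in the residual, 0 of the 6 members passed and Akr1b10, Nqo1, Gsta1 and Gstp1 each had an adjusted p of 0.9995 by edgeR. Without that term the September minus July values that lost their call were 3.33 (Akr1b10), 1.52 (Nqo1), 2.06 (Gsta1) and 2.01 (Gstp1), October minus July was 1.53 for Gsta1 and October minus September -2.86 for Akr1b10. For Gstp1, October minus July and October minus September gained a call with no filter (1.01 and -1.05), DESeq2 (1.03 and -1.03) and limma-voom (1.00 and -1.03). By DESeq2, September minus July of Gsta4 (0.72) and October minus July and minus September of Nqo1 (0.70 and -0.75) gained one too. No other change of scaling, filter or tool changed the 4 members that passed.

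With no replicate block the condition contrast called 1441 genes (708 higher, 733 lower) against 3044. Leaving out each run gave 2081 to 3210 genes for the condition, 366 to 746 for the run test, 366 for September against July, 546 for October against July and 746 for October against September, and 2 to 4 members past the run test. With October left out, the condition contrast called 1125 genes higher and 956 lower in TE-RMS, against 1528 and 1516. Without July, October minus September gained a call for Nqo1 (-0.75), Gsta1 (-0.52) and Gstp1 (-1.04), and without September, October minus July gained one for Gstp1 (0.9996). By edgeR the adjusted p then ranged from 4.05e-12 to 0.972 for Akr1b10, 0.00133 to 0.335 for Nqo1, 4.01e-08 to 0.0294 for Gsta1, 0.1253 to 0.916 for Gsta4, 0.000122 to 0.0467 for Gstp1 and 0.472 to 0.921 for Me1, the highest of each but Gsta1 being without September. Fits with a run left out rest on fewer libraries, so their smallest p are no stronger evidence than those with all libraries. Depth did not limit the members, whose lowest count was 176, but 1 library per run and condition leaves the ratio of a run without replicates, and most pathway and marker genes could not be named.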
